A study of Mus musculus with 30 samples.

Results

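The genes described here are 34 genes of red blood cell formation in the mouse, measured in the liver and lung of fetuses whose mothers received the surfactant perfluorooctane sulfonate (PFOS). They were chosen by name, as a list, with earlier results of these data known. Each gene was read from the probe set of the array whose annotation gives that gene's symbol alone, and where there were several, from the one that averaged highest across the 30 arrays. A probe set is a group of short probes on the array that together report 1 transcript. Of the 34 genes, 32 had such a probe set, out of 18193 genes in all, and Ahsp and Trim58 are not analysed here.

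Red cells form from committed progenitors that divide several times, fill with hemoglobin, condense and lose their nucleus. In the mouse the fetal liver is the main site of this process before birth, and its erythroblasts lie among hepatocytes, macrophages and other developing blood cells. The transcription factors Gata1, Tal1 and Klf1 turn on genes for globins, heme synthesis, iron uptake, blood group proteins and the spectrin skeleton under the red cell membrane. An earlier, yolk sac wave of red cells carries the embryonic globins, of which Hbb-y, Hbb-bh1 and Hba-x are members.

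Pregnant CD-1 mice, an outbred stock, were given the potassium salt of PFOS by oral gavage at 0, 5 or 10 mg/kg/day from gestation day 1 to day 17, in a vehicle of 0.5% Tween 20 that the control group received too. The groups at 5 and 10 mg/kg/day are called the low and the high dose. Liver and lung were taken on gestation day 18, and RNA of 3 fetuses of a litter was pooled for 1 array, so that the litter is the replicate. Each of the 6 groups, liver and lung at each dose, had 5 litters. The labels do not say whether the liver and the lung arrays came from the same litters, and PFOS in the fetuses was not analysed here.

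Values are the deposited log2 probe set values, on which a difference of 1 is a doubling, and a level of one gene is not compared with that of another. Arrays of 1 group correlated at 0.990 to 0.995 over all probe sets. The 40th percentile of an array, used below as the lower limit for a gene to be tested, lay between 4.16 and 4.23. Hepatocyte markers averaged 11.95 in unexposed liver and 8.04 in unexposed lung, and lung markers 10.81 in lung and 5.14 in liver, as the tissue labels have it. Earlier results of these data had shown liver control litters 2, 3 and 5 to stand apart in 1 gene outside this set, so results that rest on the liver controls are also given without them. Genes were tested with limma, a linear model fitted across all genes, and a gene is called changed where its p adjusted by the Benjamini-Hochberg method over all genes tested is under 0.05. The 5 litters in each group limit the precision of every difference. Without liver control litters 2, 3 and 5, the genes called in liver went from 805 to 295 at the low dose. At the high dose they went from 1395 to 540. A call lost in that fit thus does not show by itself that a difference rests on those litters.

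Most of the erythroid genes were higher in liver than in lung in these fetuses. Some were also far above the lower limit in unexposed lung, as Car2 at 10.71 and Slc25a37 at 10.24. The smallest difference of any member between the tissues was 0.55. Of the 28 members that passed the lower limit in each tissue, 26 were higher in unexposed liver than in unexposed lung and 0 were lower, with a median difference of 2.88 on the log2 scale. Over all 13856 genes tested, 42.6% were called higher in liver, 40.4% lower and 83% in either direction, and the median difference was 0.04. The other 4 members, Rhag, Icam4, Hbb-bh1 and Car1, entered the test only through their liver values, so that they were bound to differ, and with them the count was 30 of 32. Rhag, which encodes the protein that anchors the Rh complex in the membrane, averaged 9.99 in liver and 3.40 in lung, where it lay below the 40th percentile. Among the 28, Hemgn, the nuclear protein hemogen of blood cells, differed by 6.27 (SE 0.22, limma adjusted p = 7.40e-21) and Klf1, the erythroid Krüppel-like factor, by 4.90 (SE 0.12, limma adjusted p = 8.66e-24).

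The 2 members that did not pass were embryonic globins. Hbb-y, the embryonic epsilon-like beta chain, stood at 7.01, 7.48, 6.44, 7.42 and 7.35 in the 5 unexposed livers and at 5.38, 5.95, 7.07, 6.80 and 7.50 in the 5 unexposed lungs. The ranges overlapped, and the difference of 0.60 (SE 0.48) had a limma adjusted p = 0.248. Hba-x, the embryonic zeta alpha-like chain, differed by 0.57 (SE 0.30, limma adjusted p = 0.0769). Hbb-bh1, the other embryonic beta-like chain, was low in both tissues, with a mean of 5.22 in liver and of 3.96, below the 40th percentile, in lung.

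**Figure D1:**
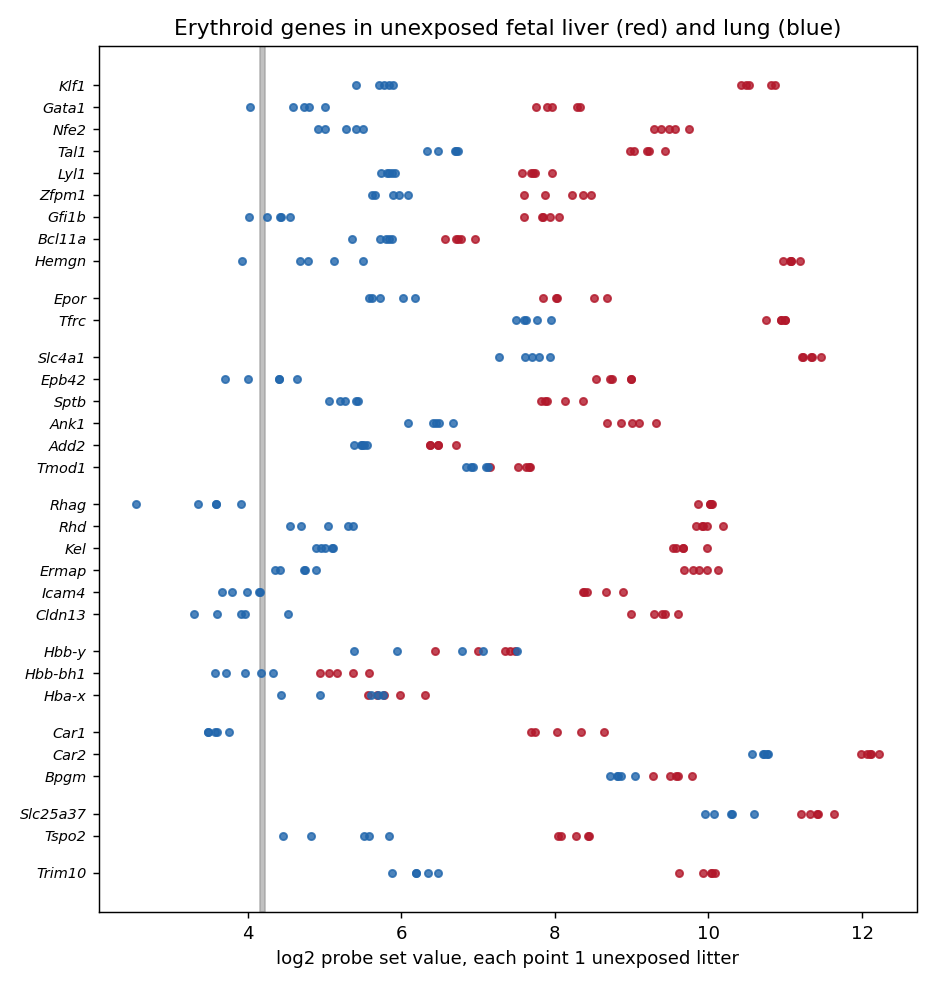
Level of each of the 32 erythroid genes in the 5 unexposed livers (red) and the 5 unexposed lungs (blue), 1 point per litter, on the log2 scale; the grey band is the range of the arrays' 40th percentiles, 4.16 to 4.23. The colours separate for 30 genes, beside 69.9% of all genes tested, and overlap for Hbb-y and Hba-x. The 30 include Rhag, Icam4, Hbb-bh1 and Car1, which entered the test only through their liver values.

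In liver at the low dose Hemgn, Klf1, Rhd and Ermap fell, by 0.35 to 0.41 on the log2 scale, and 0 members rose. That is 4 of 32 called lower, beside 1.81% of all 13269 genes tested in liver; 4.26% of them were called higher and 6.07% in either direction. The estimated difference was below 0 in 30 of the 32, the exceptions being Bpgm at 0.01 and Tspo2 at 0.11, and 22 had an unadjusted p under 0.05 in that direction. The median over the members was -0.29. Over all genes tested the median was -0.01, with 54% of genes below 0 and 9.16% lower at an unadjusted p under 0.05. RNA from whole liver cannot tell fewer erythroid cells from less of these transcripts per cell.

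Hemgn was 11.19, 11.07, 10.98, 11.07 and 11.07 in the control litters, 10.61, 10.67, 10.79, 10.59 and 10.68 at the low dose, and 10.88, 11.04, 10.83, 10.66 and 10.98 at the high dose. Every litter at the low dose was below every control litter, while the litters at the high dose ran from the level of the low-dose group up to that of the controls. The fall at the low dose was 0.41 (SE 0.07, limma adjusted p = 0.00230), a level 1.32-fold lower. The call held when any 1 of the 10 litters was left out and when control litters 2, 3 and 5 were (adjusted p = 0.0311), and was lost in a fit of both tissues together (adjusted p = 0.303), where the lung litters, with an SD of 0.59 in controls against 0.08 in liver, enter the estimate of the spread.

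Klf1, a factor on which adult globin expression and much of the red cell programme depend, was 10.86, 10.81, 10.43, 10.49 and 10.52 in controls. It was 10.09, 10.37, 10.27, 10.21 and 10.13 at the low dose and 10.26, 10.72, 10.35, 10.25 and 10.33 at the high dose. The control and low-dose litters did not overlap, and at the high dose litter 2 lay among the upper control litters while the other litters lay below all of them. Klf1 fell by 0.41 at the low dose (SE 0.10, limma adjusted p = 0.0249), a level 1.33-fold lower. The call was lost without litter 1 or 5 at the low dose (adjusted p = 0.0653 and 0.0655), without control litter 1 or 2 (0.0679 and 0.0716) and without control litters 2, 3 and 5 (0.109), with differences of -0.46 to -0.35 in these fits.

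Rhd encodes the Rh blood group protein that sits with Rhag in the red cell membrane. It was 10.19, 9.98, 9.84, 9.92 and 9.92 in controls, 9.51, 9.71, 9.68, 9.56 and 9.47 at the low dose and 9.61, 10.03, 9.67, 9.49 and 9.98 at the high dose. The control and low-dose ranges were apart, and 2 litters at the high dose were as high as controls. It fell by 0.39 at the low dose (SE 0.10, limma adjusted p = 0.0318). The call was lost without litters 1, 4 or 5 at the low dose (adjusted p = 0.0735, 0.0613 and 0.0814), without control litters 1 or 2 (0.0848 and 0.0647), without control litters 2, 3 and 5 (0.123) and with both tissues in 1 fit (0.0887).

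Ermap encodes the erythroid membrane protein that carries the Scianna blood group. Its values were 10.13, 9.98, 9.68, 9.79 and 9.88 in controls, 9.48, 9.57, 9.60, 9.58 and 9.48 at the low dose and 9.66, 9.97, 9.57, 9.38 and 9.77 at the high dose. All litters at the low dose were below the lowest control. It fell by 0.35 at the low dose (SE 0.10, limma adjusted p = 0.0468), and this call near the threshold was kept only without control litter 3 among the 10 fits that left out 1 litter (adjusted p of 0.0534 to 0.119 in the other 9). Without control litters 2, 3 and 5 its adjusted p was 0.152.

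**Figure D2:**
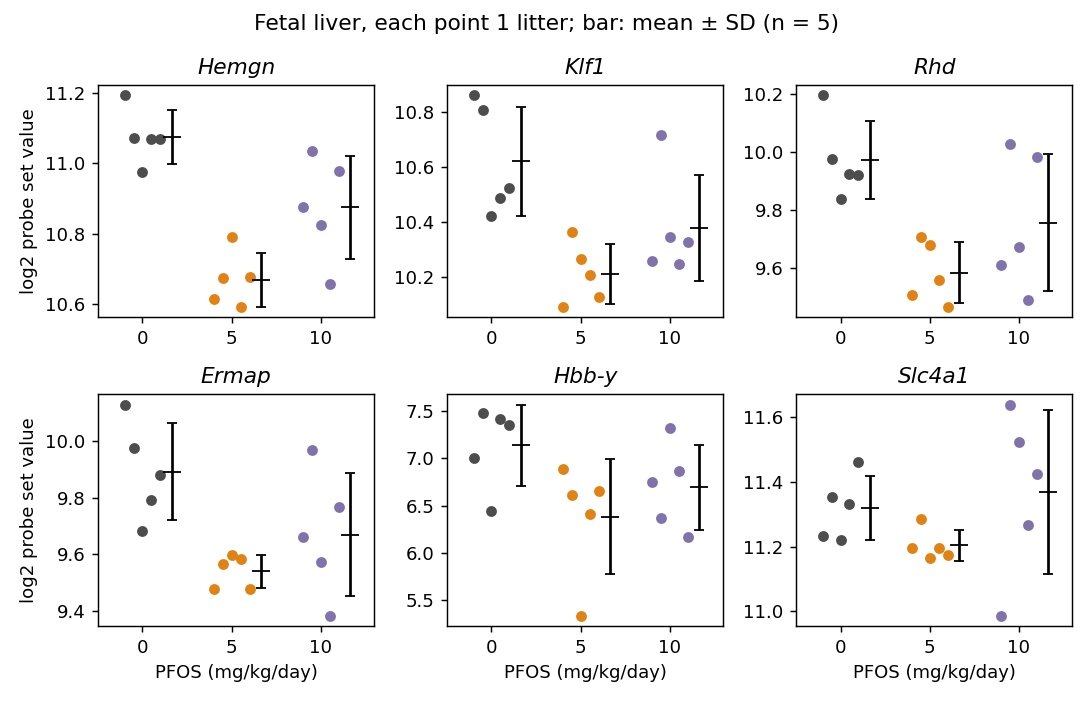
Levels in fetal liver of Hemgn, Klf1, Rhd, Ermap, Hbb-y and Slc4a1 on the log2 scale by PFOS dose, 1 point per litter, with the mean ± SD of the 5 litters beside them. In the panels of Hemgn, Klf1, Rhd and Ermap the low-dose litters (orange) lie below all controls (grey) and the high-dose litters (purple) are spread over both.

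The stretches of DNA just before the transcription starts of these 4 genes, and of Hbb-y, are shown because these genes hold the calls and the largest difference in liver at the low dose. They are the 250 bases before the annotated start, read in the direction of the gene from RefSeq on the mouse build GRCm38.p6, and the capitals mark matches to the letters searched. Klf1 is at chr8:84901732-84901981 on the plus strand, Hemgn at chr4:46404184-46404433 on the minus strand, Rhd at chr4:134864286-134864535 on the plus strand, Ermap at chr4:119189996-119190245 on the minus strand and Hbb-y at chr7:103853208-103853457 on the minus strand.
Klf1: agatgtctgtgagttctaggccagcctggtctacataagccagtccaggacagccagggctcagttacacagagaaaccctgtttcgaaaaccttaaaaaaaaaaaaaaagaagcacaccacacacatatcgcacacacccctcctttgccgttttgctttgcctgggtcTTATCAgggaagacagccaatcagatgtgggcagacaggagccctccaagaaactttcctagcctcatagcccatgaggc
Hemgn: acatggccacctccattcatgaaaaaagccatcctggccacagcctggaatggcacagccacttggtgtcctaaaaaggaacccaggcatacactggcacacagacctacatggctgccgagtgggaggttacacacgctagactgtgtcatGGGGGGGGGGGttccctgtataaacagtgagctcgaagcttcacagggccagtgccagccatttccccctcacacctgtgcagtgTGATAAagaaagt
Rhd: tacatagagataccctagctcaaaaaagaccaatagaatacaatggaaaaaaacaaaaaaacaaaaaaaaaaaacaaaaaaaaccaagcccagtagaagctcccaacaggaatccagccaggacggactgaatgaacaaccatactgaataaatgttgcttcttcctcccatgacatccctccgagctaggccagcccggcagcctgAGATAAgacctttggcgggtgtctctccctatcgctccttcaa
Ermap: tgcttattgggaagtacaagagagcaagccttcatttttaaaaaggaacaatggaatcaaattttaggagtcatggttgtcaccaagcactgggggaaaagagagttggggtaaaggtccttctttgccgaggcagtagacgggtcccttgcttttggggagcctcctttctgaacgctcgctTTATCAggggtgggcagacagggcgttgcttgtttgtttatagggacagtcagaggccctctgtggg
Hbb-y: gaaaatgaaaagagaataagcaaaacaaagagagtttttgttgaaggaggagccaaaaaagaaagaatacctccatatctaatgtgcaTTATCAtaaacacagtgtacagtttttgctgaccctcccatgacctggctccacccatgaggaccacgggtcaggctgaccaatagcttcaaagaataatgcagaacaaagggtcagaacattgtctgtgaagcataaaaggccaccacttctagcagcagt

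The letters searched, on both strands, were AGATAA with its variant TGATAA, and AGATAG with its variant TGATAG, for the site that GATA factors bind, and CCNCNCCC for the CACCC box that Klf1 binds. All 5 stretches held a match to the GATA letters, at 80 bases before the start in Klf1, 13 in Hemgn, 43 in Rhd, 67 in Ermap and 162 in Hbb-y. In Hemgn the other capitals are a run of G, which matches the CACCC letters on the opposite strand. The search window ran on for 50 bases after the start, which are not shown, and there Hemgn held a further GATA match and Rhd a CACCC match. A promoter was at hand for 25 of the 34 genes. Of these, 17 (68%) held a GATA match, against 33% of all 27025 genes in the table, 17 (68%) a CACCC match, against 51.9%, and 9 (36%) both, against 13.3%. In 14 of all 32851 windows a match of one kind overlapped a match of the other, and in 0 of the members' windows. These are matches of letters, and no binding was measured.

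The other transcription factors had differences of the same sign at the low dose. Gfi1b, a repressor needed for red cell and platelet formation, had -0.33 (SE 0.10, limma adjusted p = 0.0566), Tal1 -0.29 (adjusted p = 0.0946) and Zfpm1, the cofactor of Gata1, -0.28 (adjusted p = 0.410). Gata1 itself was 8.33, 8.29, 7.96, 7.75 and 7.90 in controls, 7.83, 7.86, 7.62, 7.73 and 7.82 at the low dose and 7.73, 8.14, 7.99, 7.66 and 7.95 at the high dose. Its control and low-dose groups overlapped through control litter 4, and its difference at the low dose of -0.28 (SE 0.11) had a limma adjusted p = 0.180. Of all 9 factors and nuclear proteins 2 were called and the smallest difference was that of Bcl11a, a repressor of embryonic globin genes, at -0.05.

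Of the receptors, Epor, which takes the erythropoietin signal, was 8.67, 8.51, 8.02, 8.01 and 7.85 in controls. At the low dose it was 7.73, 7.91, 7.73, 7.83 and 7.73, and at the high dose 7.81, 8.37, 7.93, 7.46 and 8.41. Its litters at the low dose lay close together at or below the lower end of the controls, which were widely spread (SD 0.36), and the difference of -0.43 (SE 0.18) had a limma adjusted p = 0.182. Tfrc, the transferrin receptor that brings in iron, was 11.00, 10.94, 10.94, 10.75 and 11.00 in controls, 10.58, 10.76, 10.79, 10.55 and 10.69 at the low dose and 10.47, 11.01, 10.80, 10.67 and 10.73 at the high dose. Only control litter 4 reached into the range of the low-dose group, and the difference of -0.25 (SE 0.09) had a limma adjusted p = 0.111.

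The membrane skeleton genes were lower at the low dose in all 6 estimates, from -0.43 to -0.12, with 0 called and 5 at an unadjusted p under 0.05. Epb42, protein 4.2, which ties the anion exchanger to ankyrin, was 8.997, 8.99, 8.54, 8.74 and 8.71 in controls, 8.37, 8.60, 8.46, 8.24 and 8.16 at the low dose and 8.43, 8.80, 8.82, 8.19 and 8.62 at the high dose. Control litter 3 overlapped the exposed litters, and the difference of -0.43 (SE 0.13) had a limma adjusted p = 0.0558. Slc4a1, the anion exchanger band 3 and the main membrane protein of the red cell, was 11.23, 11.35, 11.22, 11.33 and 11.46 in controls, 11.20, 11.29, 11.16, 11.20 and 11.17 at the low dose and 10.99, 11.64, 11.52, 11.27 and 11.42 at the high dose. Its difference at the low dose was the smallest of the 6, at -0.12 (SE 0.10, limma adjusted p = 0.569). The other Slc4a1 probe sets had -0.37 and -0.46 there, and the one used is of the kind whose name marks probes that can match other transcripts.

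The blood group and surface proteins held 2 of the 4 calls, and all 6 had differences below 0, from -0.50 to -0.21. In 4 of them, Rhd, Kel, Ermap and Icam4, the controls and the low-dose litters did not overlap, as in Klf1 and Hemgn. That makes 6 of the 32 members, beside 7.6% of all genes tested. Cldn13, a claudin abundant in mouse erythroid cells, was 9.61, 9.40, 8.995, 9.29 and 9.44 in controls, 9.01, 8.86, 9.10, 9.08 and 8.18 at the low dose and 9.09, 9.24, 9.10, 8.86 and 9.37 at the high dose. Litter 5 at the low dose was far below the rest, and the difference of -0.50 (SE 0.16) had a limma adjusted p = 0.0780. Icam4, the adhesion protein by which erythroblasts hold on to macrophages, was 8.88, 8.66, 8.36, 8.42 and 8.38 in controls, 7.92, 8.34, 8.20, 8.11 and 8.04 at the low dose and 8.18, 8.69, 8.27, 7.91 and 8.46 at the high dose. Its control and low-dose ranges were separated by a small gap, and its difference of -0.42 (SE 0.13) had a limma adjusted p = 0.0761.

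Hbb-y had the largest difference of any member, -0.76 at the low dose (SE 0.28, limma adjusted p = 0.131). It was 7.01, 7.48, 6.44, 7.42 and 7.35 in controls, 6.89, 6.61, 5.34, 6.41 and 6.66 at the low dose and 6.75, 6.37, 7.32, 6.87 and 6.17 at the high dose. The groups overlapped through control litter 3, and litter 3 at the low dose was the lowest of all. Hbb-bh1 was 5.05, 5.17, 4.95, 5.58 and 5.37 in controls, 4.77, 5.38, 4.69, 5.02 and 4.72 at the low dose and 4.72, 5.60, 5.34, 4.74 and 4.91 at the high dose, and at the low dose its difference was -0.31 (SE 0.18, limma adjusted p = 0.373). Hba-x was 5.78, 5.98, 5.57, 6.31 and 5.68 in controls, 5.81, 5.82, 4.98, 5.95 and 5.75 at the low dose and 5.55, 5.81, 6.12, 5.58 and 5.94 at the high dose. The Hba-x groups lay on top of each other apart from litter 3 at the low dose, the litter that was also lowest for Hbb-y, and the difference was -0.20 (SE 0.18, limma adjusted p = 0.594). Globin genes are close in sequence, so probe sets of one may take up transcripts of another.

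The enzymes and transporters differed least. Car2, a carbonic anhydrase, had -0.17 (limma adjusted p = 0.181) at the low dose, Bpgm, which makes the bisphosphoglycerate that loosens oxygen from hemoglobin, 0.01 (adjusted p = 0.969) and Slc25a37, the mitochondrial iron importer mitoferrin, -0.19 (adjusted p = 0.368). Car1, the other carbonic anhydrase, varied widely between litters in liver, from 7.69 to 8.64 in controls, from 6.77 to 8.51 at the low dose and from 6.84 to 8.47 at the high dose. Trim10, a TRIM protein that acts in terminal erythroid differentiation, had -0.35 (SE 0.11, limma adjusted p = 0.0655).

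Where a gene had more than 1 probe set, the others could be set beside the one used. There were 26 such probe sets, of 11 members, and 23 of them lay above the 40th percentile in control livers. Of those, 21 had a difference below 0 at the low dose and 21 had the sign of the probe set used. The other Hbb-y probe sets had -0.80 and -0.55 and the other Tfrc probe sets -0.25 and -0.38.

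At the high dose limma called 0 of the 32 members in liver, beside 5.22% of all genes tested called lower, 5.3% higher and 10.5% in either direction. Estimates were below 0 for 27 members and above 0 for 5, with a median of -0.15, and 5 had an unadjusted p under 0.05, all lower. The median was -0.08 without litter 4 at the high dose, -0.09 without control litter 1 and -0.23 without control litters 2, 3 and 5. With the probe sets of a gene averaged it was -0.12. Some signs depended on the probe set. Add2 had -0.18 and its other probe sets 0.25, 0.055, -0.05 and -0.0049. Ank1 had -0.10 and its others above the 40th percentile 0.20 and -0.06. Slc4a1 had 0.05 and its others -0.12 and -0.01. Over all genes tested the median was -0.02, with 56.5% below 0 and 14.2% lower at an unadjusted p under 0.05. The control and exposed litters did not overlap in 0 members, beside 9.04% of all genes. More genes of the array passed at this dose than at the low dose, 1395 against 805, while fewer of the erythroid members did.

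The genes called at the low dose had smaller estimates at the high dose. They were picked by their low-dose values, so this cannot show by itself that they responded less at the high dose. Hemgn had -0.20 (SE 0.07, limma adjusted p = 0.0878), Klf1 -0.24 (SE 0.10, adjusted p = 0.162), Rhd -0.21 (SE 0.10, adjusted p = 0.209) and Ermap -0.22 (SE 0.10, adjusted p = 0.184). Gfi1b, at -0.29 (SE 0.10), had the smallest adjusted p of all members, 0.0733. Without litter 2 at the high dose Hemgn (adjusted p = 0.0443) and Klf1 (0.0358) passed, and without litter 5 at the high dose or without control litter 3 Gfi1b did (0.0393 and 0.0326). The 5 estimates above 0 were those of Zfpm1, Slc4a1, Bpgm, Slc25a37 and Tspo2, up to 0.18. Both dose comparisons use the same control litters, so their shared sign is not independent.

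**Figure D3:**
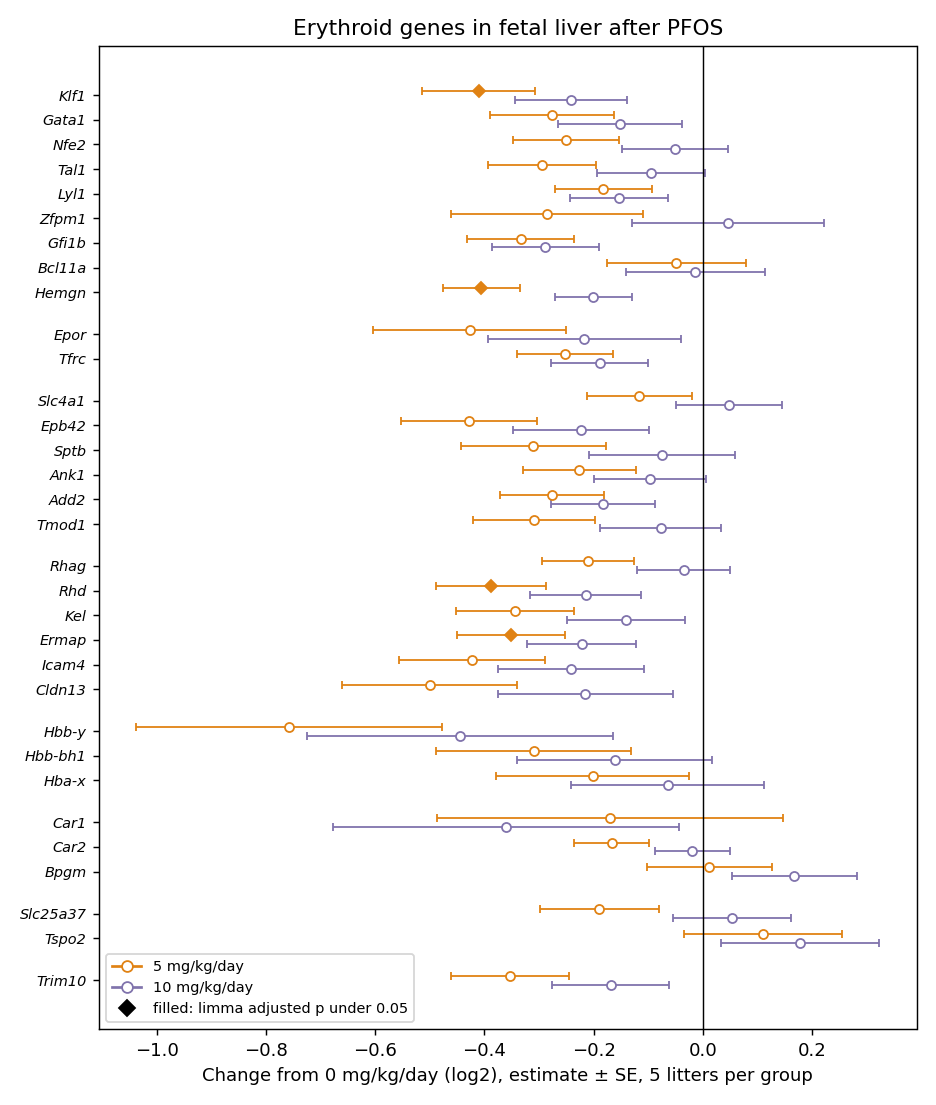
Difference from control livers, in log2, of each of the 32 erythroid genes at the low dose, 5 mg/kg/day (orange), and the high dose, 10 mg/kg/day (purple), as the limma estimate ± SE with 5 litters per group, ordered by role; filled diamonds are called. Of the 32 orange estimates 30 lie below 0, and the 4 filled ones are Klf1, Hemgn, Rhd and Ermap.

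Set directly against each other, the 2 exposed groups did not differ in any called member. For 31 of the 32 members the estimate at the high dose was above that at the low dose, with a median difference of 0.17. Over all genes 55.9% had the estimate at the high dose below that at the low dose, and the median was -0.02. Of the members limma called 0, beside 0% of all genes higher and 0.00754% lower. Hemgn (0.21), Car2 (0.15) and Slc25a37 (0.24) had an unadjusted p under 0.05, with limma adjusted p = 0.522, 0.637 and 0.622.

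In each litter, members below their control mean were counted. At the low dose 30, 25, 30, 30 and 30 of the 32 were below it, with a mean deviation of -0.28, -0.12, -0.32, -0.34 and -0.36. At the high dose the counts were 30, 7, 23, 32 and 16, with mean deviations of -0.27, 0.09, -0.09, -0.32 and -0.03. The control litters themselves had 7, 12, 24, 24 and 17 members below the mean, with mean deviations from -0.14 in litter 3 to 0.17 in litter 1. Of the 5 litters at the low dose 4 thus had a mean deviation below that of every control litter, and litter 2 was within their range. At the high dose litters 1 and 4 were below every control litter, and litters 2, 3 and 5 were within their range. The difference between the doses in these counts was not tested. Over all genes tested in liver, the median deviation of a litter of either dose was between -0.03 and 0.01.

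**Figure D4:**
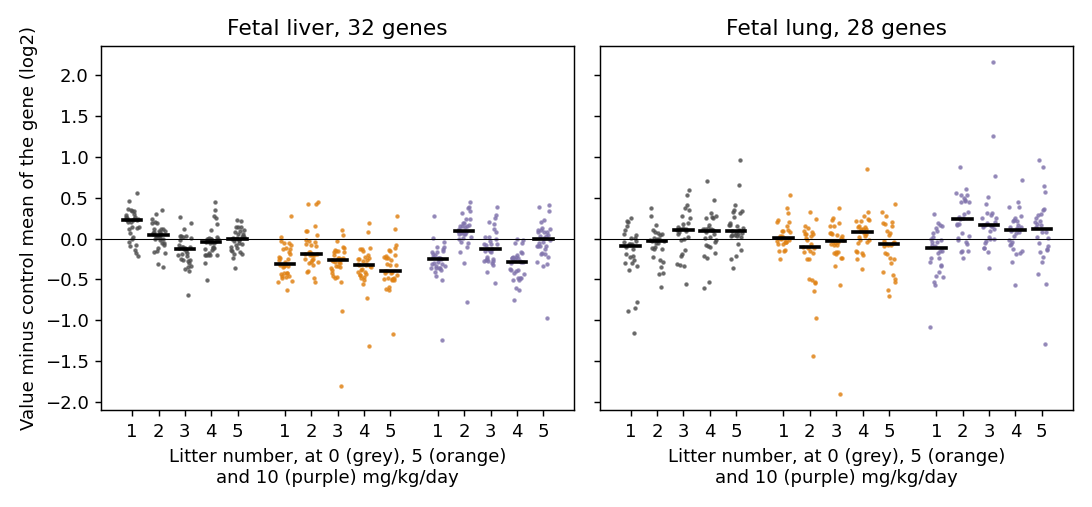
Deviation of each erythroid gene from its mean in the control group of the tissue, in log2, in each litter of fetal liver (left, 32 genes) and fetal lung (right, 28 genes); a point is 1 gene and the bar the median over genes. All 5 liver medians at the low dose lie below 0, from -0.40 to -0.19, while those at the high dose run from -0.29 to 0.09.

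Further genes of the red cell were read from a list of 55, of which 45 had a probe set with 1 symbol and 44 could be tested in liver. In unexposed liver 38 of the 44 were called higher than in unexposed lung and 6 lower, beside 42.6% and 40.4% of all genes. Their differences went down to -2.09, so not every gene of this list singles out red cells of the liver. Of the 44, 4 fell and 0 rose at the low dose, 37 estimates were below 0 and the median was -0.16, beside 1.81% of all genes called lower, 4.26% higher and 54% below 0. Uros, an enzyme of heme synthesis, fell by 0.27 (limma adjusted p = 0.0176), Xpo7, a nuclear transport protein of maturing erythroblasts, by 0.44 (adjusted p = 0.0164), Cd24a, a surface protein of young blood cells, by 0.26 (adjusted p = 0.0126), and the amino acid transporter Slc38a5 by 0.43 (adjusted p = 0.0337). Averaging all probe sets of a gene ended the calls of Uros, Xpo7 and Cd24a (adjusted p = 0.480, 0.0528 and 0.0580), and with control litters 2, 3 and 5 left out all 4 missed the threshold (0.128, 0.0675, 0.142 and 0.271). Leaving out 1 litter ended the call of Uros without litter 5 at the low dose (0.0532) and that of Slc38a5 without litters 1, 4 or 5 at the low dose or control litters 1, 2 or 5 (0.0570 to 0.0897). Alas2, the erythroid enzyme that starts heme synthesis, had -0.18 (adjusted p = 0.321) and the adult globin gene Hbb-b2 -0.17 (adjusted p = 0.412).

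Of the same 44 genes 3 fell and 1 rose at the high dose, with a median of -0.08. Of all genes 5.22% were called lower and 5.3% higher at that dose, so that these counts were near or below the background. Slc38a5 fell by 0.43 (limma adjusted p = 0.0250), Myb, a factor of dividing progenitors, by 0.27 (adjusted p = 0.0327) and Stfa3, a stefin, by 0.27 (adjusted p = 0.0328), while Cat, catalase, which hepatocytes also make, rose by 0.29 (adjusted p = 0.0423). Which cells of the liver these 4 differences came from was not tested. With control litters 2, 3 and 5 left out, all 4 missed the threshold (adjusted p of 0.221 for Slc38a5, 0.0606 for Myb, 0.203 for Stfa3 and 0.174 for Cat). In the 10 fits that left out 1 litter Slc38a5 missed it in 3, Stfa3 in 4, Myb in 6 and Cat in 8.

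Markers of other cells in the fetal liver were read beside the erythroid genes. Of 11 cell cycle genes 5 fell at the low dose and 3 at the high dose, beside 1.81% and 5.22% of all genes, and the estimates of all 11 were below 0 at both doses, with medians of -0.28 and -0.24. Mki67, Top2a, Cenpf, Pcna and Rrm2 fell at the low dose and Cenpf, Pcna and Mcm5 at the high dose. With control litters 2, 3 and 5 left out, all of these calls were lost (limma adjusted p of 0.0803, 0.162, 0.161, 0.0813 and 0.0837, and of 0.136, 0.0534 and 0.132). Their differences in that fit were -0.44 to -0.32 at the low dose and -0.41 to -0.34 at the high dose. In the 10 fits that left out 1 litter, the genes missed the threshold in 1 to 7 fits at the low dose and in 0 to 6 at the high dose. With the probe sets of a gene averaged, Top2a and Cenpf were not called at the low dose (limma adjusted p = 0.280 and 0.169). Cenpf and Mcm5 were not called at the high dose (0.476 and 0.362). With both tissues in 1 fit, all 5 low-dose calls were lost (0.0522 to 0.321). Those of Cenpf and Mcm5 at the high dose were lost too (0.119 and 0.260). The mean level of that list per litter was 9.30 to 9.52 in controls, 8.997 to 9.24 at the low dose and 9.01 to 9.40 at the high dose. That of the 32 erythroid members was 8.73 to 9.05, 8.52 to 8.76 and 8.56 to 8.97, so that in both lists the high-dose litters covered the ranges of the other groups in part. Of 10 granulocyte genes 0 were called at the low dose and 4 fell at the high dose, with medians of -0.18 and -0.35, and list levels of 10.91 to 11.11, 10.57 to 11.00 and 10.51 to 10.82. Without control litters 2, 3 and 5 only Elane of these 4 was called (limma adjusted p = 0.0469), and Prtn3 (0.133), Ltf (0.130) and Ms4a3 (0.254) were not. Leaving out 1 litter ended the calls of these genes in 5 to 9 of 10 fits. Of 10 macrophage genes 0 were called and 1 fell, with medians of -0.13 and -0.15 and list levels of 8.22 to 8.67, 8.14 to 8.42 and 8.16 to 8.47. Of 8 hepatocyte genes 0 were called and 1 fell, with medians of -0.06 and -0.10 and list levels of 11.77 to 12.08, 11.81 to 11.99 and 11.73 to 12.01. Adgre1 and Apoa1, the macrophage and hepatocyte genes that fell, were not called without control litters 2, 3 and 5 (limma adjusted p = 0.179 and 0.178). The call of Adgre1 was also lost without high-dose litters 2, 3 or 5 or control litters 2, 3 or 4 (0.0581 to 0.0775). That of Apoa1 was lost without high-dose litters 1 or 5 or control litters 2 or 4 (0.0524 to 0.0603). All genes of these 4 lists that were on the array lay above the 40th percentile in each liver group. Of 6 early blood progenitor genes 1 rose at both doses, Hlf, a factor of blood stem cells, by 0.48 and 0.50 (limma adjusted p = 0.00504 and 0.00228), with list medians of 0.06 and -0.07. In unexposed liver 4 of these 6 were called lower than in unexposed lung and 2 higher, beside 40.4% and 42.6% of all genes. Their median difference was -2.08, so the list does not single out blood progenitors of the liver. Which cells the rise of Hlf came from was not tested. Of 7 endothelial genes 1 fell at both doses, Stab2, a scavenger receptor of the liver sinusoids, by 0.33 and 0.48 (limma adjusted p = 0.0412 and 0.00301), with list medians of -0.11 and -0.25. Without control litters 2, 3 and 5 Hlf and Stab2 were called at the high dose (limma adjusted p = 0.0434 and 0.0383) and not at the low dose (0.0740 and 0.196). The low-dose call of Stab2 was also lost without litters 2, 3 or 5 at that dose or control litters 1, 3 or 4 (0.0622 to 0.104). Of 8 megakaryocyte and platelet genes and 5 B lymphoid genes limma called 0 at either dose, with 2 and 1 of them at an unadjusted p under 0.05 at each dose. The part of any of these lists in the erythroid differences was not tested.

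**Figure D5:**
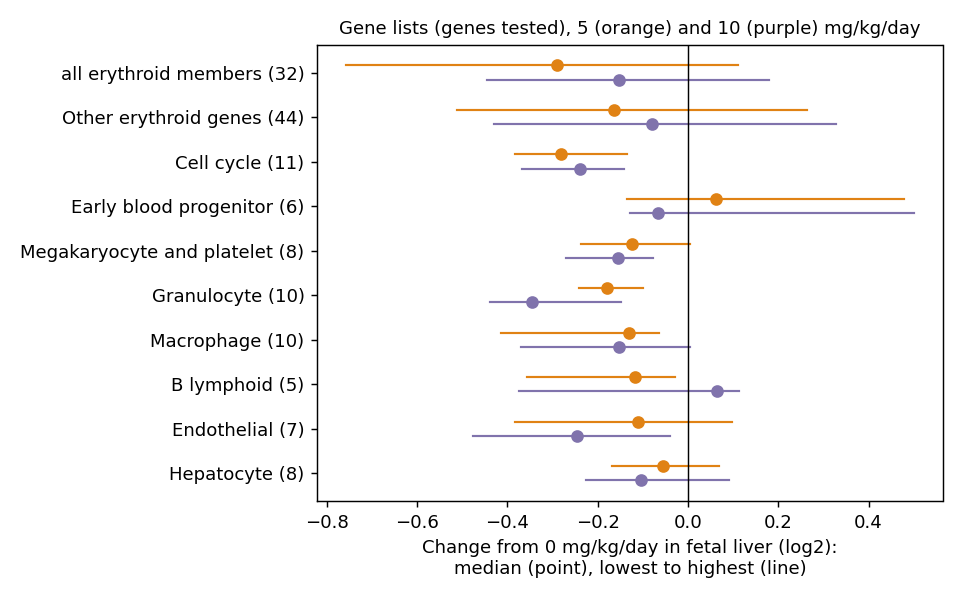
Differences from control livers, in log2, over the genes of each list at the low dose, 5 mg/kg/day (orange), and the high dose, 10 mg/kg/day (purple); the point is the median, the line runs from the lowest to the highest gene, and the number of genes tested is in parentheses. The median of the 32 erythroid members moves from -0.29 to -0.15 between the doses, and that of the 10 granulocyte genes from -0.18 to -0.35.

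In fetal lung 28 of the 32 members passed the lower limit. At the low dose limma called 0 of them, beside 0.0155% of all 12897 genes tested in lung called higher and 0% lower. Estimates were below 0 for 17 and above 0 for 11, with a median of -0.02, and 1 had an unadjusted p under 0.05. Over all genes 48% were below 0 and 1.76% were lower at an unadjusted p under 0.05. At the high dose limma again called 0, beside 0.0388% of all genes higher, 0.0155% lower and 0.0543% in either direction, with 9 estimates below 0 and 19 above, a median of 0.10, and an unadjusted p under 0.05 for 3. Over all genes 47.8% were below 0 at that dose and 3.12% were lower at an unadjusted p under 0.05. Among the members Sptb, the beta spectrin of the red cell skeleton, was the lower one at both doses, at -0.26 and -0.37 (limma adjusted p = 0.9985 and 0.542). Tmod1, which caps the actin of that skeleton, and Cldn13 were the higher ones at the high dose, at 0.34 and 0.41 (adjusted p = 0.594 and 0.645). Cldn13 was above the 40th percentile on 5 of the 15 lung arrays only, and its control mean of 3.86 lay below that limit.

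The genes that fell in liver had small differences in lung at the low dose, 0.14 for Klf1 (SE 0.13), -0.03 for Hemgn (SE 0.28), 0.00 for Rhd (SE 0.16) and 0.03 for Ermap (SE 0.16). In control lungs Ermap (4.63), Hemgn (4.80) and Rhd (4.99) averaged near the lower limit, where a fall would be hard to see. Their lung values thus cannot show whether the lung responds as the liver does. In lung Klf1 was 5.78, 5.71, 5.41, 5.84 and 5.89 in controls, 5.93, 5.62, 5.80, 5.94 and 6.05 at the low dose and 5.44, 6.28, 5.98, 6.11 and 5.93 at the high dose, and its groups overlapped throughout. Hbb-y varied most, from 5.38 to 7.50 in control lungs, 4.64 to 6.91 at the low dose and 5.25 to 8.70 at the high dose.

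Whether the dose response differed between the tissues was tested as the liver difference minus the lung difference. It is described for the 28 members that passed the lower limit in each tissue, since Rhag, Icam4, Hbb-bh1 and Car1 entered through liver alone; limma called 0 of these 4 as well. At the low dose limma called 0 of the 28, beside 0.484% of all 13856 genes called lower, 1.57% higher and 2.06% in either direction. The value was below 0 for 26, beside 53.3% of all genes, with a median of -0.20 against -0.01 over all genes. At an unadjusted p under 0.05, 5 members were lower, beside 5.43% of all genes. Klf1 had the smallest p, with -0.55 (SE 0.18, limma adjusted p = 0.121). At the high dose limma also called 0, beside 1.67% lower, 2.22% higher and 3.89% in either direction. There 24 were below 0, beside 57.2% of all genes, with a median of -0.20 against -0.03. At an unadjusted p under 0.05, 7 members were lower, among them Klf1 at -0.47 (limma adjusted p = 0.158), beside 9.43% of all genes. Cldn13, at -0.67 and -0.62 (adjusted p = 0.198 and 0.179), passed at both doses without lung control litter 5 (0.0435 and 0.0410), but these values rest on lung levels near or below the lower limit. Without lung litter 1 at the high dose Klf1 and Ermap passed at that dose (0.0272 and 0.0494). For Hemgn the value at the low dose was -0.37 (SE 0.30, limma adjusted p = 0.713), its 5 control lungs ranging from 3.92 to 5.51.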

How the data were processed

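RNA of 30 pools, 1 per litter and tissue, was hybridised to Affymetrix mouse expression arrays. The RNA integrity number was at least 8, per the labels. The deposited values are log2 probe set signals made with RMA, per the submitters' processing notes; the sources used here give neither its version nor which arrays it took together. The platform annotation gives 1 symbol to 34945 of the 45101 probe sets, several to 932 and none to 9160, beside 64 control sets; only the first kind was used, 1 per gene, by the highest mean.

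From these values a limma model (version 3.58.1, R 4.3.3; lmFit and eBayes) with 1 mean per dose was fitted for each tissue, on genes above the 40th percentile on at least 5 of its 15 arrays, and a model of all 30 arrays gave the contrasts between tissues. P-values were adjusted over all genes tested. Groups come from the sample labels. Values in every group are given for members called in a dose comparison, the 5 largest liver differences, the embryonic globins, Klf1, Gata1, Epor, Tfrc and Slc4a1, and the other members by range and count. The members, lists and this rule were chosen with earlier results of these data known. Members named beyond this rule were chosen after their values were seen. The procedure was tested on simulated data. Figures were drawn with matplotlib 3.10.9 (Python 3.11.15). The alternatives were the filter, the normalization, array weights, averaged probe sets, a trended and robust spread, a replicate block, other sets of arrays in the fit, and leaving out each litter. Proteins and the promoters of 9 members were not used here.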

Additional observations from a re-analysis of the deposited data

Results flagged for a closer look

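In each tissue and dose group of 5 litters, a litter was singled out where its gap to the nearest other litter exceeded 0.71 of the group's range, which is Dixon's 95% critical value. Of 180 groups of erythroid genes 14 were so marked, 8 in liver and 6 in lung, where about 9.0 would be by chance at 1 in 20.

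In liver at 5 mg/kg/day litter 2 was the highest for Tal1 (9.16), Lyl1 (7.83) and Slc4a1 (11.29), litter 5 the lowest for Cldn13 (8.18) and litter 3 the lowest for Hba-x (4.98). At 10 mg/kg/day litter 2 was the highest for Klf1 (10.72). In control livers litter 4 was the lowest for Tfrc (10.75) and Rhag (9.86).

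In lung at 10 mg/kg/day litter 1 was the lowest for Gata1 (3.55), Nfe2 (5.22) and Slc4a1 (7.09) and litter 5 the highest for Tmod1 (7.86). Litter 5 was the lowest for Sptb (4.57) at 5 mg/kg/day and for Car2 (10.57) in controls.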

How the results depend on the processing

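The 4 liver calls at the low dose (5 mg/kg/day) became 7 with a filter at the 60th percentile, 8 with a trended and robust spread, 7 with the 2 groups alone and 1 without control litters 2, 3 and 5. Leaving out 1 litter gave 1 to 9, with 1 without litters 1 or 5 at the low dose or control litters 1 or 2, 2 without litter 4 at the low dose and 9 without control litter 3. Over all genes the 805 calls became 971 with the 60th percentile filter, 962 with a trended and robust spread and 813 with the 2 groups alone. Without control litters 2, 3 and 5 they became 295. Leaving out 1 litter gave 599 to 758 over all genes, with 725 without control litter 3. With both tissues in 1 fit the member count was 3, of which 1 was among the 4, beside 1017 of all genes. The member median stayed between -0.38 and -0.23 over 21 settings. At the high dose (10 mg/kg/day) the median ranged from -0.23 to -0.08, and the count of 0 became 1 with a trended and robust spread, and 0 to 2 on leaving out 1 litter. Over all genes the 1395 calls at that dose became 1557 with that spread, and 1001 to 1338 on leaving out 1 litter. Between the tissues the member count became 0 to 1 at the low dose and 0 to 2 at the high dose on leaving out 1 litter. In unexposed liver against lung it was 29 to 31, and the other comparisons kept 0 throughout. The cause of these shifts was not tested.

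Same-numbered litters of different doses did not deviate together (30 pairs, r from -0.31 to 0.27, 7 over 0.1), so the numbers were not taken as pairs. Between liver and lung of the same dose and number r was above 0 in all 15 pairs, from 0.0015 to 0.35, and over 0.1 in 12. The median was 0.17, against -0.02 for the same-numbered litters of different doses. The labels do not say whether these pairs share litters, and the main fit did not pair them. With dose and number as a random block (correlation 0.093) the counts between the tissues were as without it, 30, 0 and 0. With the replicate number as a block the liver counts were 4 and 0, beside 726 and 1200 of all genes. At the low dose 3 of the 4 calls were shared, Epb42 being gained (adjusted p = 0.0415) and Ermap lost (0.0519).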
